A study of Mus musculus with 12 samples.

Results

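The genes described here make, bind, sense or degrade retinoic acid. They were taken by symbol from a list of 9 genes among the 39017 genes of the deposited table, and all 9 were found. That list and the further lists below were chosen with earlier results of these data known. RNA of whole adrenals was sequenced from female mice of 10-11 weeks, 6 of them control (Ctrl) and 6 βCat-GOF, on a mixed sv129-C57Bl/6 background, with 1 library per mouse. The controls were labelled ASCre/+ but titled Wt_Ctr, and the paper describes the comparison as made with wild type adrenals. They were taken here as carriers of Cre in 1 allele of the AS locus, which is *Cyp11b2*, the gene of aldosterone synthase. Whether they carried it cannot be settled from these labels. The βCat-GOF mice were bigenic ASCre/+ ::Ctnnb1fl(ex3)/+: they carried this Cre allele and 1 *Ctnnb1* allele from which Cre removes an exon, so that β-catenin is stabilized. With wild type controls, the Cre allele would differ between the groups as well. Cre acts in cells of the zona glomerulosa (zG), the outer zone of the cortex that expresses *Cyp11b2*, whereas the libraries hold RNA of the whole gland, medulla included. Fewer cells of a type and less RNA per cell cannot be told apart in such libraries. Gene totals do not show the removed exon, so they are no check of the genotype labels.

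Retinoic acid is made from vitamin A (retinol) in a pair of steps. Retinol dehydrogenases such as RDH10 oxidize retinol to retinal, and the retinal dehydrogenases ALDH1A1, ALDH1A2 and ALDH1A3 oxidize retinal irreversibly to retinoic acid. In the cell retinoic acid is carried by the binding proteins CRABP1 and CRABP2, and it acts through nuclear receptors (RARα and RARβ among them) that bind DNA together with a retinoid X receptor. Enzymes of the CYP26 family, CYP26B1 among them, oxidize retinoic acid and so end its action. The receptors bind pairs of 6-base half-sites in the same orientation, classically 5 bases apart (DR5), and *Rarb* itself is a textbook target with such an element in its promoter.

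That element is shown first because it links a receptor gene to the pathway's own output. In the RefSeq annotation of GRCm38.p6, 6 of the 9 genes have a promoter window of 250 bases before a start, 10 windows in all (*Aldh1a3*, *Rdh10* and *Crabp2* have none in the table used here). Half-sites were searched on both strands, either the consensus AGGTCA, or the variant GGGTCA, or the variant AGTTCA, or the variant GGTTCA. A pair of them with a 5-base spacer occurred in 1 of the 10 windows, that of *Rarb*, and in 29 of the 32851 promoter windows of the same length in the table (0.0883%). Both half-sites of the *Rarb* element, GGTTCA and AGTTCA, were among the words searched, so its match was fixed by the choice of words. The *Rarb* window lies at chr14:16575477-16575726 on the minus strand. It is printed here 5′ to 3′ on the strand of the gene, with the whole DR5 in capitals.
Rarb promoter: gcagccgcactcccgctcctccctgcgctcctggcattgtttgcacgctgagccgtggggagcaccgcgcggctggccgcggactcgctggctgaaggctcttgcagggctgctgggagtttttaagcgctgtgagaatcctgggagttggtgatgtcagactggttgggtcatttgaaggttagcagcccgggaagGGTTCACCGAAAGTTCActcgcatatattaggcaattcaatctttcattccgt
Of the other retinoid genes, only *Cyp26a1*, a further retinoic acid hydroxylase, had its window looked at here. That window held a DR5 as well, with its half-sites on the opposite strand. Both read AGTTCA there, which was among the words searched, so this match was also fixed by the choice of words. The elements alone are compared below on the strand of each gene, with half-sites in capitals and the spacer in lower case, and they cover bases 53 to 37 before the start of *Rarb* and bases 32 to 16 before that of *Cyp26a1*.
Rarb DR5: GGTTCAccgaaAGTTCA
Cyp26a1 DR5: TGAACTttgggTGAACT
*Aldh1a2*, the gene whose expression differed between the groups below, has its window at chr9:71215539-71215788 on the plus strand. It is GC-rich (77.6%) and held no DR5, no pair of half-sites with a spacer of 2 or 1 bases (DR2, DR1), and no TCF/LEF word on either strand (the word CTTTGAA, the word CTTTGAT, the word CTTTGTA or the word CTTTGTT), so nothing in it is in capitals.
Aldh1a2 promoter: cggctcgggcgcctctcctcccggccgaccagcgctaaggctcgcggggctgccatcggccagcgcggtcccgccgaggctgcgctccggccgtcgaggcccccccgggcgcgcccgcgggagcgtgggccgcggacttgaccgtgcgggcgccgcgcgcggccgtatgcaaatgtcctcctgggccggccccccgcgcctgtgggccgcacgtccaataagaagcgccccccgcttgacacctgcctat
DR2 and DR1 occurred in 0.174% and 0.164% of all windows and in none of the 10. A TCF/LEF word occurred in 2 of the 10 windows, 1 of *Aldh1a1* and 1 of *Rara*, and in 14.8% of all windows. These matches describe letters in a short window and say nothing of binding.

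Levels were compared between genes per length, as FPKM, which is the count divided by the exon length and the scaled library total, computed here from the deposited counts. In Ctrl adrenals *Aldh1a1* had the highest level, 41.6 ± 19.0 FPKM, and *Aldh1a2* the next, 26.5 ± 4.02 (SD, n = 6 mice). *Aldh1a1* lay above *Aldh1a2* in 5 of the 6 mice. *Crabp1* (10.4 ± 4.2) and *Aldh1a3* (7.92 ± 3.26) came next and also changed places in 1 mouse. The receptors *Rara* (3.46 ± 0.239) and *Rarb* (2.80 ± 0.370) and the retinol dehydrogenase *Rdh10* (2.56 ± 0.373) were within a narrow range, with *Rarb* above *Rdh10* in only 4 of the 6 mice, so the order of that pair is not separated by the spread. Exons of other genes overlap 38.4% of the *Rarb* exons, and how reads there were counted is not known. The place of *Rarb* in this order is therefore uncertain. *Cyp26b1* was at 1.11 ± 0.494 FPKM, below *Rdh10* in 6 of 6 mice. *Crabp2* was at the limit of detection: its 12 libraries held between 0 and 2 counts each, under the 3 counts per library (0.117 to 0.222 CPM, counts scaled to a common library total) below which a gene is treated here as not detected.

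In βCat-GOF adrenals *Aldh1a2* headed the order, at 49.2 ± 9.19 FPKM against 43.6 ± 31.5 for *Aldh1a1* (SD, n = 6 mice), and was the higher of the pair in 5 of 6 mice. Per length, *Aldh1a2* made up 36.4% ± 9.68 of the summed level of the 3 retinal dehydrogenases in Ctrl mice (25.7% to 51.7%) and 53.4% ± 17.1 in βCat-GOF mice (28.3% to 80.1%). The ranges overlap, and the share depends on *Aldh1a1*, which varied widely: *Aldh1a1* contributed 10.3% of the sum in βCat-GOF mouse 1 and 68.3% in βCat-GOF mouse 3.

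**Figure D1:**
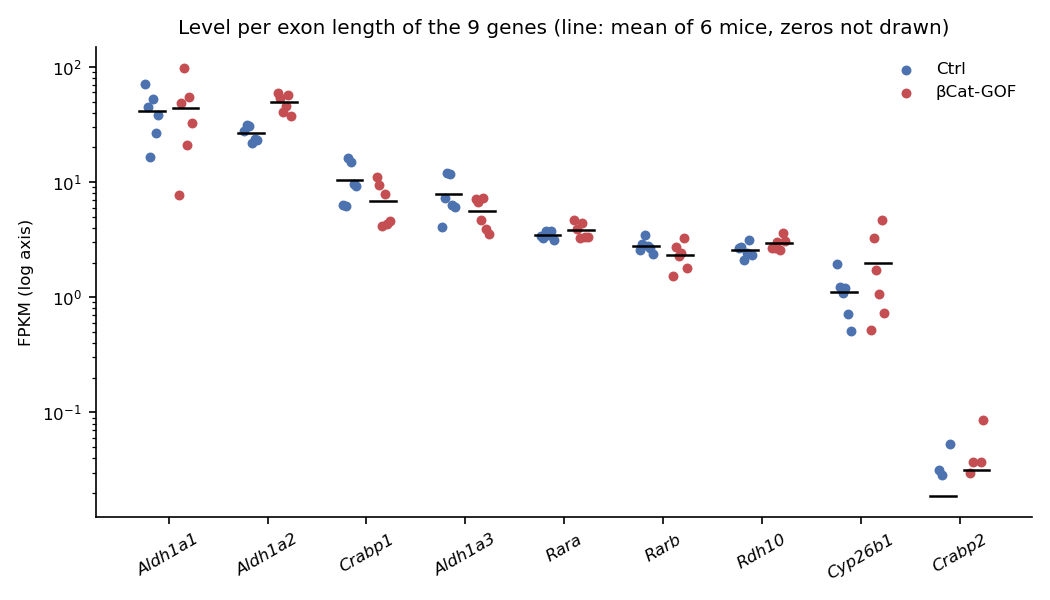
Level of each retinoic acid gene per length (FPKM, log axis) in the 6 Ctrl (blue) and 6 βCat-GOF (red) mice, 1 point per library, genes in the order of their Ctrl means, libraries at 0 counts left out. The retinal dehydrogenases *Aldh1a1* and *Aldh1a2* lie highest, with Ctrl means of 41.6 and 26.5 FPKM, and *Crabp2* is at the bottom with at most 2 counts in a library.

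The comparison of βCat-GOF with Ctrl adrenals asks which transcripts accompany stabilized β-catenin in the zG. Of the 9 genes, *Aldh1a2* rose and no other passed the test. The 8 genes other than *Crabp2* passed the filter on low counts, which 14953 genes passed, and were tested with edgeR's quasi-likelihood test, adjusted over all of these. The 1 gene that passed was higher in βCat-GOF, a direction in which 2.16% of all tested genes passed (1.52% passed lower and 3.68% either way). The study's own cut-offs (over 1.4-fold, adjusted p under 0.05, mean normalized count over 100) were met by 1 of the 8, against 2.35% of all tested genes. No member was called lower with edgeR (0) or with DESeq2 (0, against 561 genes over all without shrinkage). At an unadjusted p under 0.05, 0 were lower, against 10.7% of all tested genes. In the downward direction, 0 of the 8 had every βCat-GOF mouse below every Ctrl mouse, against 1.16% of all tested genes. The median log2 fold change was 0.11 over the 8 genes and 0.00011 over all genes tested.

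*Rdh10* (chr1:16105774-16133734, plus strand; coordinates from GENCODE M21 on GRCm38) encodes the dehydrogenase of the first step. Normalized counts, which are counts divided by the DESeq2 size factor of the library, ran from 174.5 through a median of 212.3 to 260.5 in Ctrl mice and from 213.5 through 241.0 to 301.6 in βCat-GOF mice. The groups overlapped, with 2 βCat-GOF mice above every Ctrl mouse. Expressed as βCat-GOF over Ctrl, the log2 fold change was 0.20 (standard error, SE, 0.13, adjusted p = 0.409).

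*Aldh1a1* (chr19:20492715-20643465, plus strand) was the most variable of the retinal dehydrogenases. Its normalized counts ran from 1645 through 4104 to 7009 in Ctrl mice and from 739 through 4024 to 9783 in βCat-GOF mice. The highest mouse of a group exceeded the lowest by 4.26-fold in Ctrl and by 13.2-fold in βCat-GOF, and the extremes of all 12 mice, βCat-GOF mice 1 and 3, belonged to the same genotype. The log2 fold change was 0.07 with a standard error of 0.47 (adjusted p = 0.954). Its sign was not stable: it was negative when Ctrl mouse 3 (-0.08), Ctrl mouse 5 (-0.03) or βCat-GOF mouse 3 (-0.34) was left out. The neighbouring family member *Aldh1a7* shares 89.0% identity with it over 86.5% of the transcript and was far lower, between 30.5 and 361.5 normalized counts, with a log2 fold change of 0.32 (SE 0.51, adjusted p = 0.766).

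*Aldh1a2* (ENSMUSG00000013584, chr9:71215789-71296243, plus strand) encodes the retinal dehydrogenase that supplies most retinoic acid in the embryo. Its normalized counts ran from 993.6 through a median of 1167 to 1417 in Ctrl mice and from 1744 through 2260 to 2646 in βCat-GOF mice. Every βCat-GOF mouse lay above every Ctrl mouse, a separation upward that 1.61% of all tested genes showed. The log2 fold change was 0.89 (SE 0.13, adjusted p = 0.00306), and an exact permutation test over all splits of the 12 mice, two-sided, gave p = 0.00216, the smallest it can give. Spread within a genotype was low, with a coefficient of variation of 15.2% in Ctrl and 17.6% in βCat-GOF mice. The gene passed in all 12 fits that left out 1 mouse, with log2 fold changes between 0.84 and 0.95 and adjusted p between 0.00282 and 0.0099. It did not pass when the test asked for more than a 1.4-fold change (glmTreat, adjusted p = 0.102).

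Some markers of zG cells also rose. Their list was chosen with earlier results of these data known, so the share of all tested genes is not an independent yardstick for it. It includes *Dab2*, *Wnt4* and *Shh*, which the paper measured by qRT-PCR among selected genes. Of 9 zG markers, all tested, 4 rose (2.16% of all tested genes did) and 0 fell at an adjusted p under 0.05: the angiotensin receptors *Agtr1b* and *Agtr1a*, *Dab2* and *Vsnl1*, with log2 fold changes of 1.55, 0.89, 0.75 and 1.00. The other 5 did not pass: *Wnt4*, *Kcnk9*, *Shh*, *Hsd3b6* and the aldosterone synthase gene *Cyp11b2* had log2 fold changes of 0.79, 0.96, 0.96, 0.15 and -0.18. The summed normalized counts of the list ran from 26771 to 41326 in Ctrl and from 37589 to 67381 in βCat-GOF mice, and the groups overlapped. Retinal dehydrogenase 2 is also known from mesothelium and stroma. None of 8 capsule and stroma markers passed, with log2 fold changes from -0.50 (*Thy1*) to 0.53 (*Gli1*), and none of 5 mesothelium markers (4 tested), with log2 fold changes from -0.52 (*Upk3b*) to 0.89 (*Lrrn4*, adjusted p = 0.214). Their summed counts overlapped as well, from 8547 to 16312 in Ctrl against 6390 to 13365 in βCat-GOF mice for the former and from 132 to 354 against 178 to 368 for the latter. The part of these cell types in the *Aldh1a2* difference was not tested.

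*Aldh1a3* (chr7:66390890-66427517, minus strand), the third retinal dehydrogenase, was on average lower in βCat-GOF adrenals without passing the test. Normalized counts ran from 376.6 through 625.4 to 1112 in Ctrl and from 330.7 through 535.3 to 667.4 in βCat-GOF mice. The overlap was large, since Ctrl mouse 1 (376.6) lay below 4 of the 6 βCat-GOF mice. The log2 fold change was -0.51 (SE 0.27, adjusted p = 0.297).

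*Crabp1* (chr9:54764748-54773110, plus strand) encodes a cytosolic carrier of retinoic acid. It ran from 99.2 through 151.3 to 259.1 normalized counts in Ctrl and from 68.0 through 100.6 to 173.1 in βCat-GOF mice. There were 3 βCat-GOF mice (3, 5 and 6) below every Ctrl mouse, while βCat-GOF mouse 1 lay above 4 of the 6 Ctrl mice. For *Crabp1* the log2 fold change was -0.59 (SE 0.31, adjusted p = 0.303). *Crabp2* (chr3:87948666-87953376, plus strand), the carrier that hands retinoic acid to its receptors, had 3 counts in all over the Ctrl libraries and 5 over the βCat-GOF libraries. No fold change is given for it, because both groups were below the limit of detection.

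*Rara* (chr11:98927818-98974942, plus strand), which encodes RARα, was the steadiest of the genes in Ctrl mice, with a coefficient of variation of 6.96%. Normalized counts ran from 275.2 through 299.6 to 328.4 in Ctrl and from 290.8 through 319.8 to 403.5 in βCat-GOF mice. βCat-GOF mice 1, 2 and 4 lay above every Ctrl mouse and the other 3 within the Ctrl range, and the coefficient of variation in this genotype was 15.0%. This amounted to a log2 fold change of 0.15 (SE 0.12, adjusted p = 0.516).

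*Rarb* (chr14:16430839-16819156, minus strand), the receptor gene whose promoter element is printed above, ran from 251.4 through 286.1 to 365.7 normalized counts in Ctrl and from 157.7 through 250 to 345.0 in βCat-GOF mice. βCat-GOF mice 1, 3 and 6 lay below every Ctrl mouse, with mouse 1 the lowest of the 12 and mouse 5 above all but 1 Ctrl mouse. Between the genotypes the log2 fold change was -0.26 (SE 0.17, adjusted p = 0.405). Exons of *Top2b* and *Gm48162* on the opposite strand overlap 38.4% of the *Rarb* exons, and the sources used here do not say whether reads were counted by strand. *Top2b* had a mean of 2921 normalized counts in Ctrl and 2752 in βCat-GOF mice (log2 fold change -0.09, adjusted p = 0.545), and reads in the shared stretch cannot be assigned to either gene with certainty.

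*Cyp26b1* (chr6:84571414-84593908, minus strand), the degrading enzyme, ran from 54.5 through 122.0 to 208.9 normalized counts in Ctrl and from 54.9 through 151.3 to 509.6 in βCat-GOF mice. βCat-GOF mice 2 (347.1) and 5 (509.6) lay above every Ctrl mouse, and βCat-GOF mice 1 and 6 (54.9 and 79.2) near the bottom of the Ctrl range. The log2 fold change was 0.84, near that of *Aldh1a2*, but with a standard error of 0.49 (adjusted p = 0.35). It ranged from 0.40 to 1.09 when single mice were left out, and was lowest without βCat-GOF mouse 5.

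**Figure D2:**
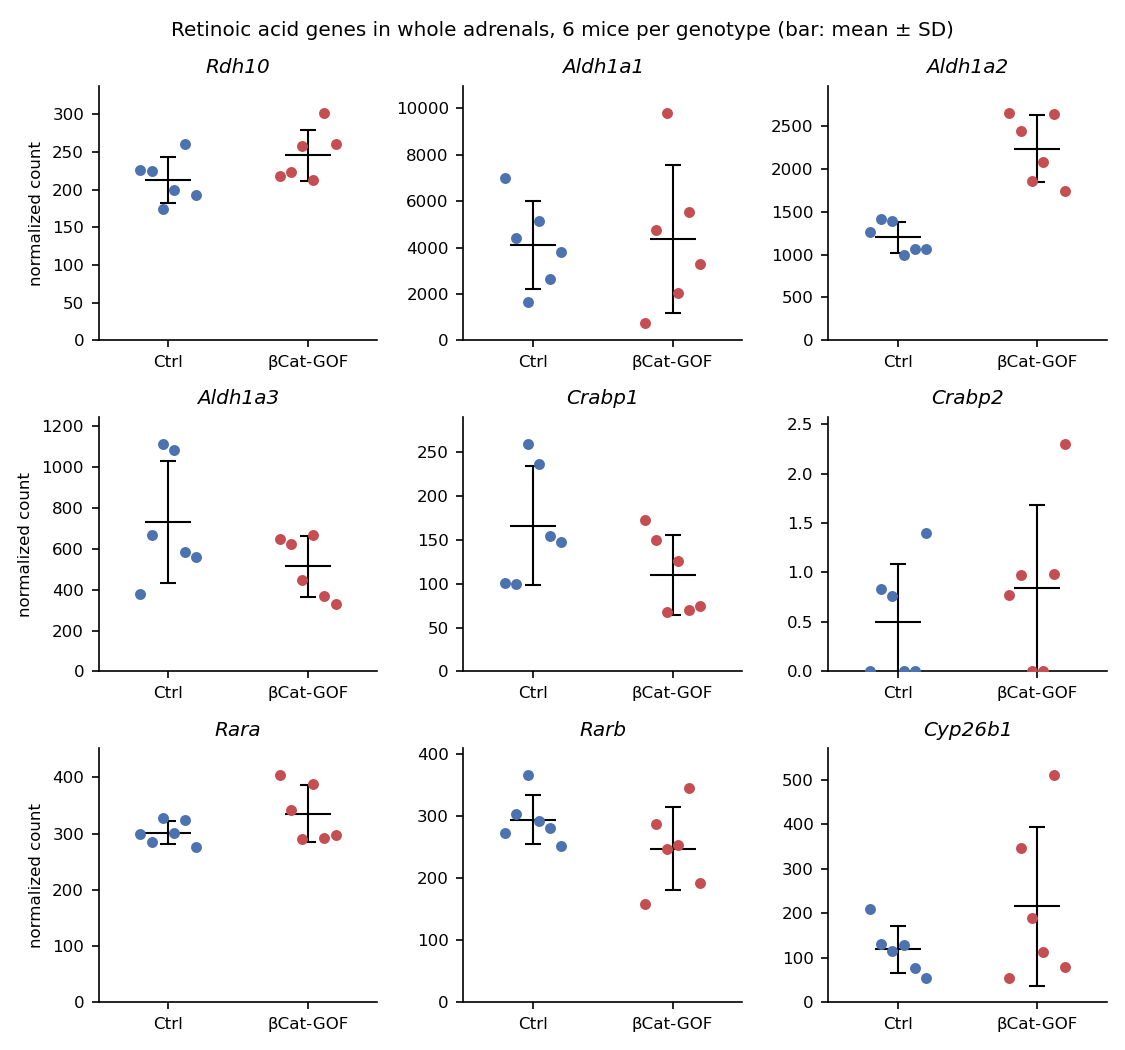
Normalized counts (y axis, from 0) of the 9 retinoic acid genes in 6 Ctrl (blue) and 6 βCat-GOF (red) mice, 1 point per mouse in the order of the mouse numbers, with the mean and SD as bars. The groups separate for *Aldh1a2*, with 993.6 to 1417 in Ctrl and 1744 to 2646 in βCat-GOF mice, and overlap for the other 8 genes.

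The genes also varied between mice of 1 genotype, and some did so together. To describe this, the mean of each genotype was subtracted from the log2 CPM, and the deviations were correlated over the 12 mice by Pearson's r. For Spearman's rho the mice were ranked within each genotype, and the ranks of both genotypes were correlated together. The values given without the extremes leave out the 2 mice farthest from the median deviation of the gene named first. Relations were computed for 28 pairs of genes and for 88 pairs of a gene with the mean level of a marker list, 116 in all, with 100000 permutations within genotype, two-sided. By Pearson's r, 7 passed an adjusted p of 0.05 and 27 an unadjusted p of 0.05. With Spearman's rho 0 passed the adjusted threshold and 31 the unadjusted one, so the 7 relations rest on the linear measure.

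*Aldh1a3* varied with the medulla markers. Its deviations correlated with those of the 6 medulla markers (tyrosine hydroxylase and chromogranins among them) at r = 0.906 (permutation p = 0.00013, adjusted p = 0.0151) and rho = 0.857 (permutation p = 0.00198, adjusted p = 0.0866). The relation was present in each genotype, with r = 0.927 in Ctrl and 0.904 in βCat-GOF mice. It was 0.856 without Ctrl mice 3 and 4, which lay farthest from the median deviation of *Aldh1a3*, and 0.860 without Ctrl mice 1 and 3, whose *Aldh1a3* deviations were largest. *Crabp1* correlated with the same markers at r = 0.771 (permutation p = 0.00276, adjusted p = 0.0457; rho = 0.771, permutation p = 0.00966, adjusted p = 0.142; r = 0.873 in Ctrl, 0.716 in βCat-GOF and 0.765 without the extremes). *Aldh1a3* and *Crabp1* correlated with each other at r = 0.862 (permutation p = 0.0027, adjusted p = 0.0457; rho = 0.629, permutation p = 0.0479, adjusted p = 0.182; r = 0.851 in Ctrl, 0.900 in βCat-GOF, 0.797 without Ctrl mice 3 and 4 and 0.823 without Ctrl mice 1 and 3). The genes both had negative log2 fold changes that did not pass, and of the 6 medulla markers 5 had negative log2 fold changes and 0 passed, with summed counts from 77767 to 237567 in Ctrl and from 98602 to 190131 in βCat-GOF mice. The part of the medulla in the *Aldh1a3* and *Crabp1* differences was not tested.

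*Aldh1a1* varied with the markers of the X-zone, the inner cortical zone of young female mice. With these markers, *Akr1c18* and *Pik3c2g*, its r was 0.863 (permutation p = 0.00057, adjusted p = 0.0331) and its rho 0.800 (permutation p = 0.0059, adjusted p = 0.142), with r = 0.784 in Ctrl, 0.935 in βCat-GOF and 0.752 without βCat-GOF mice 1 and 3. Neither X-zone marker passed between the genotypes, but their summed counts ranged from 4999 to 107512 in Ctrl and from 2188 to 126181 in βCat-GOF mice. βCat-GOF mouse 1, the lowest for *Aldh1a1*, deviated by -4.08 in the X-zone level and by -1.09 in the level of zona fasciculata (zF) markers, both on the log2 scale.

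The other relations that passed by Pearson's r joined *Aldh1a3* with Schwann cell markers (r = 0.805, permutation p = 0.00176, adjusted p = 0.0457; rho = 0.771, permutation p = 0.00966, adjusted p = 0.142; r = 0.843 without Ctrl mice 3 and 4 and 0.698 without Ctrl mice 1 and 3). *Crabp1* was joined with mesothelium markers (r = 0.807, permutation p = 0.00152, adjusted p = 0.0457; rho = 0.857, permutation p = 0.00224, adjusted p = 0.0866; r without the extremes 0.789). *Rara* was also joined with mesothelium markers (r = 0.778, permutation p = 0.00208, adjusted p = 0.0457; rho = 0.771, permutation p = 0.0101, adjusted p = 0.142; r without the extremes 0.655). *Aldh1a2*, the gene that rose, had no relation that passed, and its r was of similar size with several lists. Within genotype it was 0.621 with zG markers (permutation p = 0.0627, adjusted p = 0.24; rho = 0.371, permutation p = 0.273; r = 0.149 in Ctrl, 0.813 in βCat-GOF and 0.579 without the extremes) and 0.613 with capsule and stroma markers (permutation p = 0.0629, adjusted p = 0.24; rho = 0.400, permutation p = 0.236, adjusted p = 0.459; r = -0.0781 in Ctrl, 0.920 in βCat-GOF and 0.438 without the extremes). With X-zone markers it was -0.611 (permutation p = 0.0457, adjusted p = 0.203; rho = -0.686, permutation p = 0.0281, adjusted p = 0.158; r = -0.630 in Ctrl, -0.600 in βCat-GOF and -0.475 without the extremes). With zF markers its r was -0.713 (permutation p = 0.00727, adjusted p = 0.0649; rho = -0.800, permutation p = 0.00634, adjusted p = 0.142; r = -0.826 in Ctrl, -0.771 in βCat-GOF and -0.648 without the extremes). *Rarb* and *Cyp26b1* had r = 0.820 (permutation p = 0.00719, adjusted p = 0.0649; rho = 0.600, permutation p = 0.0626, adjusted p = 0.209), which was 0.951 in βCat-GOF but 0.308 in Ctrl mice, and 0.607 without βCat-GOF mice 1 and 5. Some relations that did not pass had a smaller permutation p than this pair, each at an adjusted p of 0.0634. *Aldh1a1* had r = -0.805 with *Rara* (permutation p = 0.00477), and *Aldh1a3* had 0.786 with adipocyte markers (permutation p = 0.00601). With Schwann cell markers r was 0.789 for *Rara* (permutation p = 0.00552) and 0.774 for *Crabp1* (permutation p = 0.00578).

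**Figure D3:**
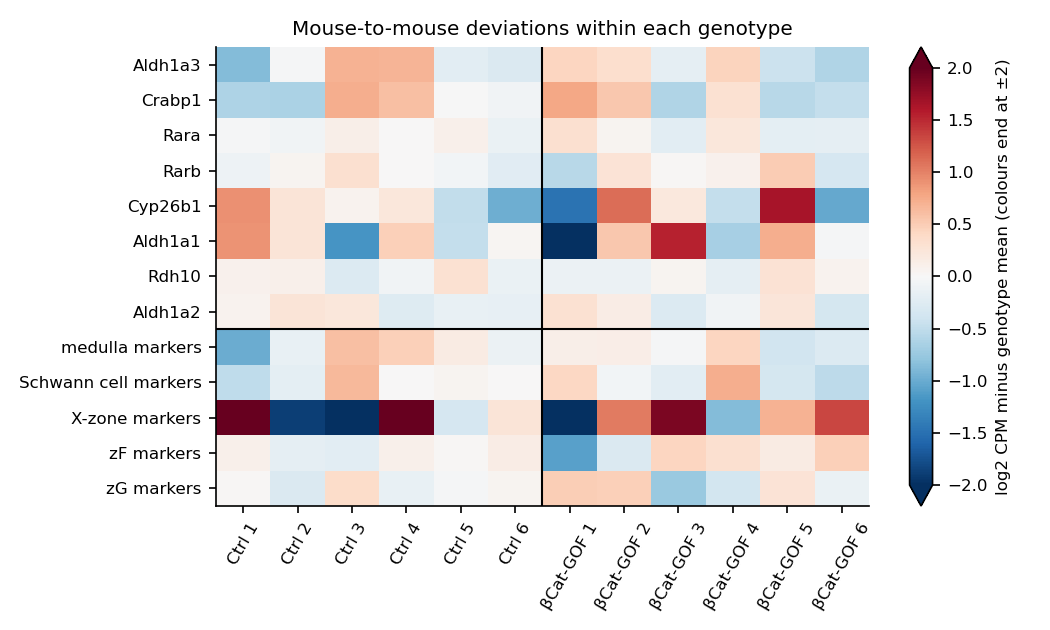
Deviation of each mouse (columns) from the mean of its genotype in log2 CPM, for the 8 tested retinoic acid genes (upper rows) and for the mean of 5 marker lists (lower rows), with colours that end at 2 and -2 although X-zone markers reach 2.42 and -4.08. *Aldh1a3* and *Crabp1* share the signs of the medulla markers in most mice, *Aldh1a1* those of the X-zone markers, and the *Rara*, *Rdh10* and *Aldh1a2* rows are pale throughout.

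The genes most like each of the 8 were taken from the same within-genotype deviations, over 12 libraries, among 11430 tested genes with a mean normalized count above 100. They are given as a description with no test, and the highest r among so many genes over 12 libraries is large by selection. For *Aldh1a2* these were *Col6a5* (r = 0.934), the Wnt effector gene *Lef1* (0.924) and *Fbxo16* (0.924). None of them passed between the genotypes here, with log2 fold changes of -0.22, 0.90 and -0.12 (edgeR, adjusted p = 0.836, 0.0845 and 0.766). The paper, which used DESeq2 on these mice, lists *Lef1* among the upregulated genes. For *Aldh1a3* the nearest genes were *Ddr1* (0.972), the neurotrophin receptor gene *Ngfr* (0.964) and *Nsg2* (0.961). For *Crabp1* they were *Nfasc* (0.962), *Celf6* (0.937) and *Rundc3a* (0.936). For *Aldh1a1* they were *Aacs* (0.956), *Rsph4a* (0.939) and *Prkaca*, the catalytic subunit of protein kinase A (0.936). *Rdh10* was nearest to *Bag4* (0.923), *Crkl* (0.920) and *N4bp1* (0.912), and *Rara* to *Pck2* (0.919), *Pik3r2* (0.903) and *Pbx2* (0.892). *Rarb* was nearest to *A930005H10Rik* (0.873), *Zfand2a* (0.853) and *Ankrd9* (0.828), and *Cyp26b1* to *Ski* (0.871), *Nfil3* (0.865) and *Cbx8* (0.857).

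Around these genes, 60 further genes of retinoid metabolism and response were examined, of which 43 were tested. Their log2 fold changes had a median of 0.06, with 26 positive and 17 negative. At an adjusted p under 0.05, 3 rose (2.16% of all tested genes did) and 2 fell (1.52%). At an unadjusted p under 0.05, 9 were higher and 2 lower, 11 of 43 in all. Of all tested genes, 20.4% were under that p, 9.73% higher and 10.7% lower. The retinoic acid target genes, a list of 17 with 13 tested, held 2 that rose and 0 that fell, with a median log2 fold change of 0.19.

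*Nr2f1*, an orphan nuclear receptor gene induced by retinoic acid, ran from 228.6 through 260.2 to 294.6 normalized counts in Ctrl and from 359.8 through 392.5 to 433.6 in βCat-GOF mice. Like *Aldh1a2* it showed no overlap, and its log2 fold change was 0.59 (SE 0.10, adjusted p = 0.00577). It passed in all 12 fits that left out 1 mouse, and not in the test against a 1.4-fold change (adjusted p = 0.966). The homeobox gene *Meis2* ran from 3537 to 4070 and from 4481 to 5614, again without overlap, with a log2 fold change of 0.34 (SE 0.08, adjusted p = 0.0317). Its call was kept in 4 of the 12 fits with 1 mouse left out, with adjusted p between 0.023 and 0.0768, and was lost without Ctrl mouse 1, 3, 4, 5 or 6 or βCat-GOF mouse 3, 4 or 6, and also with 1 surrogate variable (adjusted p = 0.0687). *Hoxa5*, the largest change among the tested targets, did not pass (log2 fold change 0.67, SE 0.27, adjusted p = 0.177), and neither did *Hoxb5* (0.42, adjusted p = 0.073), which was named after its values were seen. With DESeq2 *Hoxb5* passed (adjusted p = 0.0133) and *Hoxa5* did not (0.0967). With 1 surrogate variable both passed (adjusted p = 0.0199 for *Hoxb5* and 0.0108 for *Hoxa5*). Without βCat-GOF mice 1 and 2 neither passed in edgeR. *Hoxb5* then had a log2 fold change of 0.30 (adjusted p = 0.11) and *Hoxa5* one of 0.21 (adjusted p = 0.523). *Rarres1*, a retinoic acid responsive gene also named after its values were seen, was below the filter: its raw counts were 1, 0, 4, 3, 3 and 1 in the Ctrl libraries and 14, 13, 54, 10, 9 and 18 in the βCat-GOF libraries. Without the filter its log2 fold change was 3.29 (edgeR, adjusted p = 0.00481). The Ctrl counts lay near the limit of detection of 3 counts per library, so the size of this change is uncertain.

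In transport and storage, 7 of 10 genes were tested, with a median log2 fold change of 0.04. *Stra6l*, a homologue of the retinol transporter gene *Stra6*, fell: its normalized counts ran from 26.7 through 36.9 to 47.8 in Ctrl and from 9.19 through 18.4 to 25.1 in βCat-GOF mice, without overlap. Its log2 fold change was -1.0 (SE 0.25, adjusted p = 0.0394). The call was lost without Ctrl mouse 1, 2, 4 or 6 or βCat-GOF mouse 2, 4, 5 or 6, with adjusted p between 0.0319 and 0.084 over the 12 fits. *Rbp4*, the plasma carrier of retinol, ran from 61.8 to 168.9 in Ctrl and from 134.5 to 689 in βCat-GOF mice and did not pass (log2 fold change 1.59, SE 0.45, adjusted p = 0.0725). DESeq2 gave it an adjusted p of 0.0248, and edgeR without βCat-GOF mice 1 and 2 gave 0.0154. With 1 surrogate variable *Rbp4* had a log2 fold change of 1.05 (adjusted p = 0.329). *Lrat*, which esterifies retinol for storage, had a log2 fold change of 1.03 on at most 15 counts in a library (adjusted p = 0.132).

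Among 19 genes of retinol and retinal oxidation or reduction, 12 were tested and *Adh7* passed. *Adh7*, an alcohol dehydrogenase active on retinol, ran from 5568 through 11530 to 29750 normalized counts in Ctrl and from 3729 through 4666 to 7495 in βCat-GOF mice. The groups overlapped, with 4 βCat-GOF mice below every Ctrl mouse. Its log2 fold change was -1.43 (SE 0.34, adjusted p = 0.0328) and -1.03 without Ctrl mouse 2, the highest. The call was lost without Ctrl mouse 4 or 5 or βCat-GOF mouse 3, 4, 5 or 6, with adjusted p between 0.0124 and 0.0733 over the 12 fits, and with 1 surrogate variable (adjusted p = 0.106). *Adh1*, the most abundant of the list, with means of 141200 and 129900, had a log2 fold change of -0.13 (adjusted p = 0.765). *Rdh1* did not pass either, with 118.1 to 442.0 in Ctrl and 270.5 to 1112 in βCat-GOF mice (log2 fold change 1.07, SE 0.35, adjusted p = 0.11). DESeq2 gave *Rdh1* an adjusted p of 0.0268, and edgeR without βCat-GOF mice 1 and 2 gave 0.0389. With 1 surrogate variable *Rdh1* had a log2 fold change of 0.54 (adjusted p = 0.449).

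Of the remaining receptors, *Rarg*, *Rxra* and *Rxrb* had log2 fold changes of -0.03, 0.05 and 0.05, none passing, and *Rxrg* was below the filter. None of 6 receptor coregulators passed, with log2 fold changes from -0.19 (*Ncoa2*) to 0.14 (*Nrip1*). Beside *Cyp26b1*, the degrading enzymes *Cyp26a1* and *Cyp26c1* had at most 2 counts in any library and were below the limit of detection. *Ppard*, a nuclear receptor gene of the alternative route through FABP5, ran from 522.0 through 567.1 to 683.5 in Ctrl and from 522.5 through 848.4 to 994.8 in βCat-GOF mice. It rose with a log2 fold change of 0.50 (SE 0.13, adjusted p = 0.0482), and 5 of 6 βCat-GOF mice lay above every Ctrl mouse. That call was kept only without Ctrl mouse 2 or βCat-GOF mouse 1 and was lost in the other 10 fits, with adjusted p between 0.00216 and 0.113, and with 1 surrogate variable (0.184). *Fabp5* had a log2 fold change of 0.27 (adjusted p = 0.618).

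**Figure D4:**
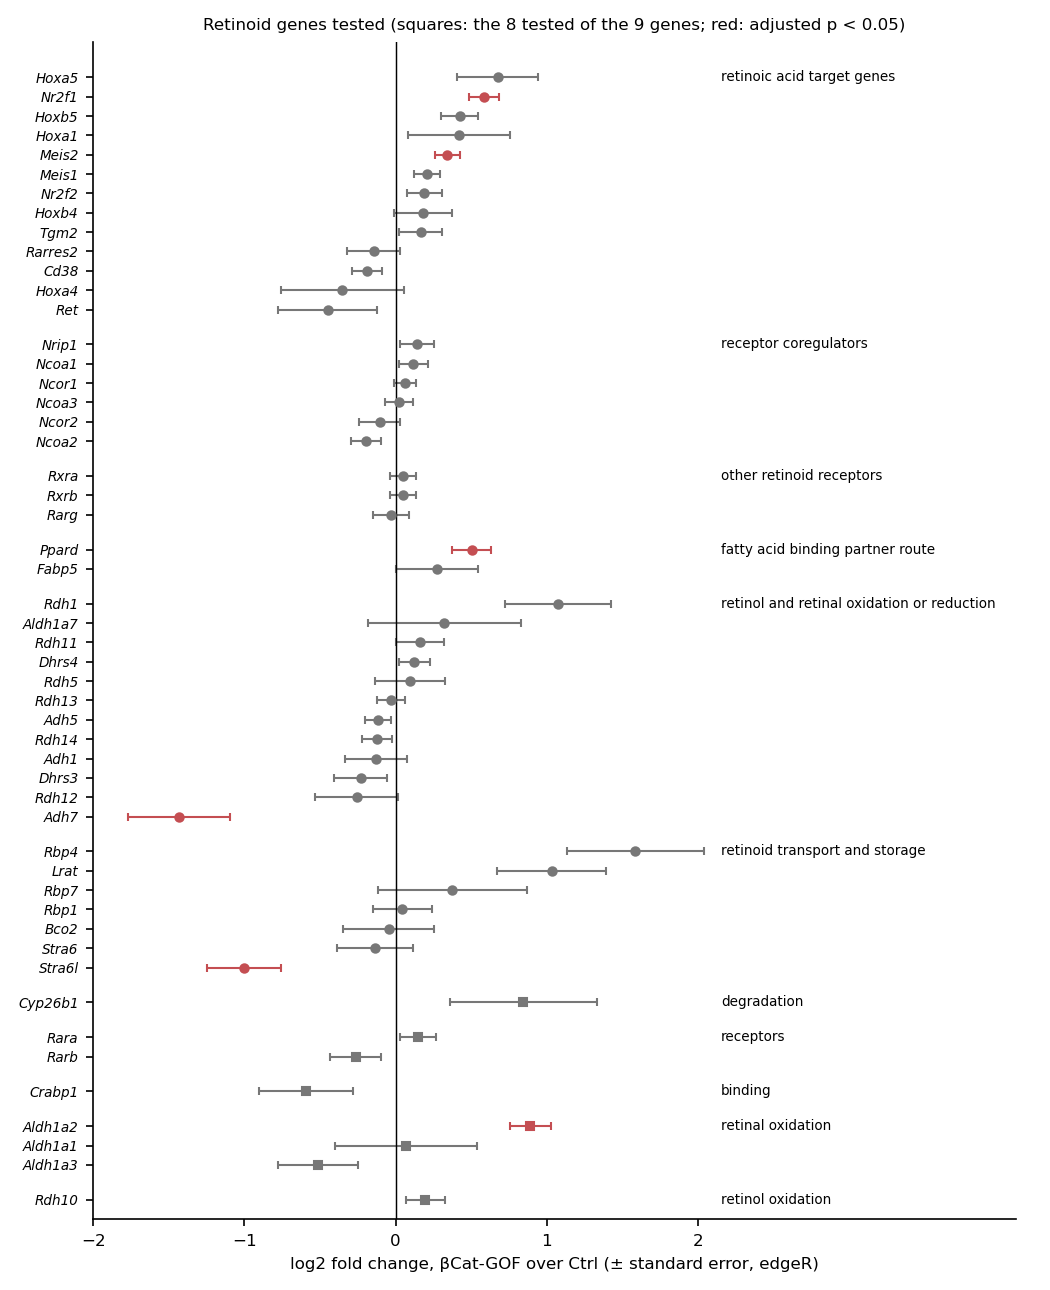
Log2 fold change of βCat-GOF over Ctrl with its standard error (edgeR) for the tested retinoic acid genes (squares) and the 43 other tested retinoid genes (circles), by role, with those at an adjusted p under 0.05 in red. *Aldh1a2* at 0.89, *Nr2f1* at 0.59, *Ppard* at 0.50 and *Meis2* at 0.34 lie to the right, and *Stra6l* at -1.0 and *Adh7* at -1.43 to the left.

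Some properties of the libraries bear on all of these values. Totals ran from 13484675 to 25625494 counts per library. In a clustering by Spearman correlation over the 14953 genes, βCat-GOF mice 1 and 2 joined the 6 Ctrl mice and βCat-GOF mice 3 to 6 formed the other branch. Without mice 1 and 2 *Aldh1a2* had a log2 fold change of 0.78 (adjusted p = 0.00583), and *Crabp1* one of -1.0 (adjusted p = 0.06). With 1 surrogate variable in the fit, by contrast, *Crabp1* had -0.19 (adjusted p = 0.749) and *Aldh1a3* -0.14 (adjusted p = 0.82), and *Aldh1a2* 1.03 (adjusted p = 0.000274). Cortex and medulla were both present, with means of 257100 and 228000 normalized counts for *Cyp11b1* and of 11600 and 11870 for *Th* in Ctrl and βCat-GOF mice. Among the other marker lists, the zF genes *Akr1b7* (log2 fold change 1.48) and *Mrap* (1.03) rose and the macrophage genes *Adgre1* (-0.78) and *Mrc1* (-0.41) fell, while 0 of 6 endothelium, 0 of 4 mural, 0 of 5 Schwann cell and 0 of 4 adipocyte markers passed. The mouse labels begin with 1367 in all Ctrl mice, and with 1369 or, for 1 mouse, 1387 in βCat-GOF mice, so genotype and any family or batch marked by these digits cannot be told apart.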

How the data were processed

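RNA of whole adrenals from 6 Ctrl and 6 βCat-GOF mice was used, 1 library per mouse. Mice are numbered within a group in the order of deposit, which pairs none of them. According to the methods of the study and the submitters' processing notes, the authors trimmed adapters with cutadapt, used STAR for alignment to mm10, and obtained gene counts of unique alignments from featureCounts 1.4.4. The authors deposited these counts without normalization. A second table that the authors deposited holds a signal, each count divided by 1 factor per library; it served only for gene symbols, and 966 identifiers have none. The annotation release and the use of strand are not given in the sources used here. No column was unmapped (0).

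The counts of 39017 genes were tested with edgeR 4.0.16 in R 4.3.3 (TMM, filterByExpr, quasi-likelihood test, two-sided) and p-values were adjusted by Benjamini-Hochberg across all 14953 genes passing it. The study itself used DESeq2, which was run here as DESeq2 1.42.0. The standard error is the size of the log2 fold change divided by the square root of F. Log2 CPM used a prior count of 2. FPKM used the union of exons of GENCODE M21 and the TMM-scaled total. Sequence copies were searched for with blastn 2.17.0 and called at 95% identity over 10% of a transcript. Scripts were tested on simulated counts.

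The 9 genes and all lists were chosen with earlier results of these data known. Named are the 9 genes; from each list the genes that passed and up to 2 with the largest change; markers that passed; and the 3 genes most like each of the 9 that were tested. *Aldh1a7*, *Adh1*, *Rarg*, *Hoxb5*, *Rarres1*, *Top2b*, *Cyp11b1*, *Th*, *Cyp26a1* and the markers that did not pass were named outside this rule. Alternatives were DESeq2 without and with its prior, DESeq2's size factors in edgeR, no filter, at least 10 counts in every library, glmTreat at a fold of 1.4, a stricter adjusted p of 0.01, sva 3.50.0 with 1 surrogate variable, leaving out mice by label, and leaving out each mouse. Leaving out βCat-GOF mice 1 and 2 together was added after seeing the data. The SDs are over the mice of a group, and the standard errors come from fits that include differences between mice. Limits of detection cover counting error only.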

Additional observations from a re-analysis of the deposited data

Results flagged for a closer look

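Among 26 groups of 6 mice (the 8 tested retinoic acid genes and the 5 other retinoid genes that passed, in each genotype), a mouse stood far from the rest of its group by Dixon's criterion in 2. Chance alone flags about 1 in 20 groups. *Adh7* had 29750 normalized counts in Ctrl mouse 2, with the next highest at 13790, a gap of 0.66 of the range against a critical value of 0.625. *Ppard* had 522.5 normalized counts in βCat-GOF mouse 1, with the next lowest of that genotype at 838.5, a gap of 0.669 of the range. None of the 8 retinoic acid genes had such a mouse in either genotype, including *Aldh1a1* and *Cyp26b1* with their wide ranges.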

How the results depend on the processing

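The mouse whose label begins with 1387 is βCat-GOF mouse 5, so the fits without either are 1 fit, counted once here. Over 22 distinct alternatives, the log2 fold changes of the 8 tested retinoic acid genes kept their direction and their side of the threshold in 171 of 176 values. *Aldh1a2* lost its call in 1, the glmTreat test (log2 fold change 0.89), and *Aldh1a1*, never called, changed sign in 4: it was -0.79 with 1 surrogate variable and ranged from -0.34 to 0.30 when single mice were left out. The number of the 9 genes called higher was 1 in 21 of these 22.

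With glmTreat at a fold of 1.4, 0 of the 9 genes were called higher, 0 passed the cut-offs of the study, and of the other retinoid genes 0 rose and 0 fell, with 51 higher and 16 lower over all genes. DESeq2 without shrinkage called 7 other retinoid genes higher and 672 higher and 561 lower over all genes. With its prior these were 7, 657 and 557. At an adjusted p under 0.01, 1 other retinoid gene rose and 0 fell, with 110 and 43 over all genes. Of the 2 other retinoid genes called lower, 1 was left with no filter, with at least 10 counts in every library and with 1 surrogate variable. With the surrogate variable the 3 called higher were *Nr2f1*, *Hoxa5* and *Hoxb5* in place of *Nr2f1*, *Meis2* and *Ppard*. Without the 3 mice whose label repeats a stem it was 1 as well, with 346 lower over all genes, and without the mouse whose label begins with 1387 it was 0, with 125 lower over all genes. Without βCat-GOF mice 1 and 2 together, an alternative chosen after seeing the data, 5 other retinoid genes were called higher, and 905 higher and 835 lower over all genes.

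Leaving out single mice, 1 to 5 other retinoid genes were called higher and 0 to 2 lower, and over all genes 195 to 560 higher and 92 to 395 lower. Other retinoid genes called higher were 5 without Ctrl mouse 2 and 1 without βCat-GOF mouse 3, 4 or 6. Those called lower were 1 without Ctrl mouse 1, 2, 5 or 6 or βCat-GOF mouse 2 or 3, and 0 without Ctrl mouse 4 or βCat-GOF mouse 4, 5 or 6. Over all genes, calls higher were 195 without Ctrl mouse 6 and 560 without βCat-GOF mouse 1. Calls lower were 150, 133, 136 and 92 without Ctrl mouse 2, 4, 5 and 6, 395 without βCat-GOF mouse 1, and 139, 140, 125 and 96 without βCat-GOF mouse 2, 3, 5 and 6. The cause was not tested. No paired analysis was possible because the labels give no replicate numbers shared between the groups. *Crabp2* had too few counts for a fold change at this depth.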
